A study of Homo sapiens with 4 samples.

Results

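Deep intronic peaks were taken from the 2 ChIP-seq lists made after TGFβ-1 treatment, as the peaks whose centre lay inside the span of a protein-coding gene, outside every annotated exon, and more than 10 kb from every transcription start site of GENCODE release 44. Of the 26828 peaks of LAP-Smad2, 2970 met this rule (11.1%, Wilson 95% interval 10.7 to 11.5%). Of the 62551 peaks of LAP-Smad3, 9952 met it (15.9%, 15.6 to 16.2%). The peaks that met the rule are called members, and the rule used positions only, not peak heights.

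The libraries were made from MDA-MB-231 cells, an established line from a human breast cancer. The cells carried a bacterial artificial chromosome (BAC) with SMAD2 or SMAD3, its own control elements and a C-terminal LAP tag that contains GFP, and each line was a population selected with Geneticin and sorted for GFP rather than a single clone. Anti-GFP ChIP-seq was done without treatment and after 10 ng/mL TGFβ-1 for 2 h, which gives 4 conditions with 1 library each. With single libraries the conditions could not be tested against each other. The intervals cover counting error or the spread between peaks within a list, and none covers variation between libraries. The study set a minimum number of reads per library, but the lists hold no read totals, which leaves the depth behind each list unknown, and the number of peaks called also depends on depth. The sample labels and the deposited names assign the untreated libraries to opposite Smads. Of peaks inside the SMAD2 gene, the untreated list with the LAP-Smad2 label had 2 and that with the LAP-Smad3 label 13. After TGFβ-1, LAP-Smad2 had 17 and LAP-Smad3 had 1, so that the SMAD2 gene goes against the untreated labels. Inside the SMAD3 gene, the untreated lists had 0 and 1 peaks in the same order, and the TGFβ-1 lists 1 and 52. The SMAD3 gene does not go against the labels, and its untreated counts are too low to decide between labels and deposited names. The names in the labels are used here, and no direction is read from either untreated library.

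Smad2 and Smad3 are the receptor-regulated Smads of TGFβ signalling. After phosphorylation by the receptor they join Smad4, enter the nucleus and bind DNA together with other factors. The DNA-binding domain of Smad3 recognises the short sequence CAGAC and also GC-rich elements such as GGCGC and GGCCG, whereas an insert in that domain of the common form of Smad2 hinders its binding to DNA. Introns far from a start site hold enhancers. They also hold many interspersed repeats, which descend from copies of mobile elements, and arrays of tandem repeats, which are frequent near chromosome ends.

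The members fell into several kinds of sequence, and examples of tandem repeats and of sequences with few copies are shown because the results turn on them. All are 200 bp on the peak centre, given as the plus strand of hg38. The first pair comes from tandem repeats, in which the capitals mark 1 repeat unit. PTPRN2 (chr7:158147884-158148083, unit of 38 bases, intron 6) was the LAP-Smad3 member with the highest −log10 q, and TTC34 (chr1:2682422-2682621, unit of 40 bases, intron 6) the member with the highest −log10 q in the gene where LAP-Smad3 members were densest, among genes with at least 5.
PTPRN2: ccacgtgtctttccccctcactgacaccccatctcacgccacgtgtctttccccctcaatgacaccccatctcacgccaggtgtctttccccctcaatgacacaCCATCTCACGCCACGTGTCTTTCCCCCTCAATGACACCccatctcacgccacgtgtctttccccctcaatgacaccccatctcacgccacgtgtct
TTC34: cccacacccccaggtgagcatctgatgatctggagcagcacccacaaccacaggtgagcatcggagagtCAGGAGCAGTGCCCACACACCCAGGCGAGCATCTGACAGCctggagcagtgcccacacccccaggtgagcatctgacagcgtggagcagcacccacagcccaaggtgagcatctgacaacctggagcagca

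The next 2 sequences carry the 5-base unit GGAAT, written ATTCC on the other strand, in capitals. DCC (chr18:52792707-52792906, intron 2) was the LAP-Smad2 member with the highest −log10 q, and SH3RF3 (chr2:109199449-109199648, intron 1) the LAP-Smad2 tandem repeat with the highest one, in which only the first unit is in capitals.
DCC: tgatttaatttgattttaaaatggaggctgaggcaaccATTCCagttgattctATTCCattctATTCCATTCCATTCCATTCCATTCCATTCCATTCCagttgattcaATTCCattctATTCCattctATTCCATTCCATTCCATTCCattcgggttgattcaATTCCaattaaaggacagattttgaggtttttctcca
SH3RF3: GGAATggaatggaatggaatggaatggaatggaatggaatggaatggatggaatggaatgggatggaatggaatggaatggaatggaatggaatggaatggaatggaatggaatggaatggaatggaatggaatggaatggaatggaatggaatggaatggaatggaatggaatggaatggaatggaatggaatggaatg

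The third group is made of sequences with few copies in hg38, in which capitals mark a Smad site. The HFM1 sequence is shared with a ribosomal RNA gene, as described further on, and its low count holds for hg38 only. PARN (chr16:14486977-14487176, intron 21) held the peak with the highest −log10 q among LAP-Smad2 members that overlap a LAP-Smad3 peak, and HFM1 (chr1:91387315-91387514, intron 4) the low-copy LAP-Smad3 member with the highest one. Both carry CAGAC on the other strand, written GTCTG. PLXNA4 (chr7:132465087-132465286, intron 3) held the strongest of the 4 LAP-Smad3 members with the palindromic Smad site GTCTAGAC.
PARN: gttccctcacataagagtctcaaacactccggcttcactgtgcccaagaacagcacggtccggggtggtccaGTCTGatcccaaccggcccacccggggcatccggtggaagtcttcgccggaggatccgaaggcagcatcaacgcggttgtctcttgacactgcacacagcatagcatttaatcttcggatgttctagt
HFM1: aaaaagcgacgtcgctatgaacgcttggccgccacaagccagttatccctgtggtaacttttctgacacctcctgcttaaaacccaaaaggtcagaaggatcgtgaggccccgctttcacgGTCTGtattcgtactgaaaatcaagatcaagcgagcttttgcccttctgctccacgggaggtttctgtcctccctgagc
PLXNA4: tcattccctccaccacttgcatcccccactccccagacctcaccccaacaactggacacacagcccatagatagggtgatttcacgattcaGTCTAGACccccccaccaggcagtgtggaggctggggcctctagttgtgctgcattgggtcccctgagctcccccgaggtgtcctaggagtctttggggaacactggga

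Both lists had fewer peaks in deep introns than the share of the genome there. Positions that meet the rule make up 602 Mb, or 20.5% of hg38, against 11.1% of LAP-Smad2 peaks and 15.9% of LAP-Smad3 peaks. The deep intronic share was 4.84 percentage points higher in LAP-Smad3 (Newcombe 95% interval 4.36 to 5.31). In the library labelled LAP-Smad2 untreated, 1862 of 11266 peaks met the rule (16.5%), and in the one labelled LAP-Smad3 untreated 200 of 3511 (5.70%). Per Mb of deep intronic sequence there were 4.93 members in LAP-Smad2 and 16.5 in LAP-Smad3, and LAP-Smad3 was the denser list on 23 of 23 chromosomes.

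Members had much the same height as the other peaks of their lists. The fold enrichment over the local background, as the authors' peak caller gave it, had a median of 4.11 in LAP-Smad2 members and 3.95 in the other LAP-Smad2 peaks. For LAP-Smad3 the medians were 4.90 and 4.97. Few members stood far above the cut-off, with a −log10 q of at least 10 in 117 LAP-Smad2 members (3.94%) and 278 LAP-Smad3 members (2.79%). Fold enrichments were not compared between the lists, since the depths and the controls of the libraries are unknown.

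On either side of the 10 kb limit, GC content differed by less than its spread between peaks. LAP-Smad2 peaks between 8 and 10 kb from a start site, just outside the rule, had a mean GC content of 63.8% ± 7.84 (SD, n = 483), and those between 10 and 12 kb, just inside, 64.0% ± 8.18 (n = 378). For LAP-Smad3 the values were 58.0% ± 6.03 (n = 1562) and 57.9% ± 5.42 (n = 1245). High-copy repeats, defined with their values further on, made up 52.6% outside and 59.3% inside the limit in LAP-Smad2, and 55.2% and 58.1% in LAP-Smad3. Further into the genes the number of members per Mb was lower, from 6.34 at 10 to 12 kb to 3.39 beyond 50 kb in LAP-Smad2, and from 20.9 to 12.9 in LAP-Smad3. The GC content of the deep intronic sequence itself was lower there too, at 41.2% and 38.5%.

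By intron and by segment of the gene, members were spread much as deep intronic sequence was, and they lay somewhat nearer to a start site. The first intron of the canonical transcript held 23.1% of the LAP-Smad2 members and 21.8% of the LAP-Smad3 members that fell in such introns, against 22.2% of all 200 bp tiles of deep intronic sequence. Of 3 equal segments of the gene span, the middle one held 37.8% and 36.5% of members and 37.2% of tiles. The median distance to a start site was 21.8 kb in LAP-Smad2, 22.5 kb in LAP-Smad3 and 25.6 kb over tiles.

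The 2 lists differed in GC content. The 200 bp windows of LAP-Smad2 members had a mean GC content of 63.2% ± 8.40 (SD between peaks, n = 2970), and those of LAP-Smad3 members 57.6% ± 5.88 (n = 9952), a difference of 5.63 percentage points (95% interval 5.31 to 5.96). All 3009480 deep intronic tiles had a mean of 39.9% ± 8.67. LAP-Smad2 members were the richer ones on 23 of 23 chromosomes (chromosomes 1 to 22 and X), by 3.203 to 9.08 points. Counting each gene once left a difference of 5.39 points. CpG dinucleotides, the sites of DNA methylation, numbered 12 per window at the median in LAP-Smad2, 8 in LAP-Smad3 and 1 in tiles.

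The density of members against GC content had a different course in each list. LAP-Smad3 had 9.24 members per 10000 tiles at 45 to 50% GC, 439 at 55 to 60% and 639 at 60 to 65%, and then stayed between 510 and 654 up to the richest tiles. LAP-Smad2 had 0.600 at 45 to 50%, 65.9 at 55 to 60% and 247 at 60 to 65%, and continued to 642 at 65 to 70% and 2404 at 75% and above. LAP-Smad3 members thus outnumbered LAP-Smad2 members 15.4 to 1 at 45 to 50% GC, and LAP-Smad2 members were the more frequent ones from 65% upwards. Among members with few copies in hg38 the same order held. At 60 to 65% GC there were 129 LAP-Smad2 and 408 LAP-Smad3 members per 10000 tiles. At 70 to 75% there were 1357 and 364, over only 129 measured tiles. Whether the GC content of the reads differed between the libraries was not tested, since the lists hold no reads.

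**Figure D1:**
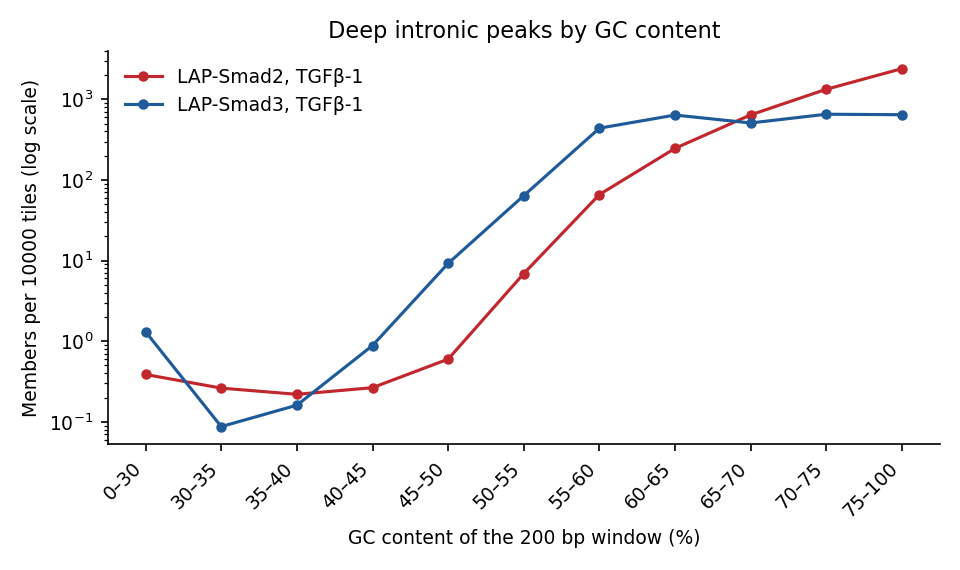
Members per 10000 deep intronic tiles of 200 bp (log scale) against the GC content of the window in %, for LAP-Smad2 (red) and LAP-Smad3 (blue) after TGFβ-1. In the GC-rich range the curves cross between 60 to 65% GC, where LAP-Smad3 has 639 members per 10000 tiles and LAP-Smad2 247, and 70 to 75%, where LAP-Smad3 has 654 and LAP-Smad2 1334.

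A few members of both lists were AT-rich. Below 20% GC lay 40 LAP-Smad3 members (0.402%, 0.295 to 0.547%), with a median GC content of 6.50%, and 20 of them were tandem repeats. LAP-Smad2 had 4 members below 20% GC (0.135%, 0.0524 to 0.346%), and 0.203% of the measured tiles lay there. At wider limits the lists did not differ in this way, with 0.438% of LAP-Smad2 and 0.442% of LAP-Smad3 members below 30% GC, and 1.01% and 0.161% between 30 and 40%.

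Most members of both lists were repeats. Windows were sorted into tandem repeats, in which at least 80% of bases equal the base 1 fixed period of 1 to 60 bases further on, into high-copy windows, in which at least 25% of the 16-mers occur 1000 times or more in hg38, and into low-copy windows. High-copy windows with at least 3 12-mers of RN7SL1 are called 7SL-like. RN7SL1 encodes the 7SL RNA of the signal recognition particle, from which Alu elements descend. The 7SL-like class held 1084 LAP-Smad2 members (36.5%, 34.8 to 38.2%) and 4461 LAP-Smad3 members (44.8%, 43.9 to 45.8%), against 5.96% of tiles. Other high-copy windows made up 21.1% of LAP-Smad2 members, 17.7% of LAP-Smad3 members and 9.16% of tiles. Low-copy windows made up 37.4% and 35.2% of members and 84.7% of tiles. Among the peaks of the same lists outside deep introns, 64.1% (LAP-Smad2) and 54.0% (LAP-Smad3) were low-copy.

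Per Mb of each kind of sequence, the order was the same in both lists. Tandem repeats held 176 LAP-Smad2 and 273 LAP-Smad3 members per Mb, 7SL-like windows 30.2 and 124, other high-copy windows 11.4 and 32.0, and low-copy windows 2.18 and 6.86. LAP-Smad3 members were 4.12 times as many as LAP-Smad2 members in 7SL-like windows, 3.15 times in low-copy windows and 1.55 times in tandem repeats. Reads from near-identical copies cannot be assigned to 1 of them, and how such reads were treated is not given in the sources used here.

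The GC difference between the lists was present in each class and unequal in size. It was 2.28 percentage points in 7SL-like windows (95% interval 2.03 to 2.52), 5.36 in low-copy windows (4.89 to 5.83), 6.89 in tandem repeats (3.86 to 9.92) and 10.9 in other high-copy windows (10.0 to 11.7). The last of these classes turned out to hold unlike sequences in the 2 lists.

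Family A was defined by the 12 16-mers found in the largest numbers of LAP-Smad2 members of the other high-copy class, each in 33.8 to 44.7% of them, and family B by the 12 found in the largest numbers of LAP-Smad3 members of that class, each in 18.0 to 18.9%. A window with at least 1 of the 12 belongs to the family. Both definitions were made after the values were seen and are given as descriptions. Each family was drawn from the members of 1 list, so that a higher share in that list follows in part from its definition. Of the other high-copy class, 177 of 628 LAP-Smad2 members and 1085 of 1764 LAP-Smad3 members were in neither family. Their mean GC content was 57.8% and 55.1%. The 16-mers of family A are known from the tandem array inside SVA elements, and those of family B from the first part of young LINE-1 elements. Both are retrotransposons that have been active in the human lineage. No repeat annotation was used here.

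Family A, drawn from LAP-Smad2 members, had the higher share in that list. It held 511 LAP-Smad2 members (17.2%, 15.9 to 18.6%) in 355 genes and 279 LAP-Smad3 members (2.80%, 2.50 to 3.15%) in 222 genes, against 0.0711% of tiles. In all, LAP-Smad3 had 3.35 times as many members as LAP-Smad2. Its LAP-Smad2 members had a GC content of 73.7% ± 6.50 (SD). Of these members, 69.1% overlapped a peak of the library labelled LAP-Smad2 untreated and 45.8% a LAP-Smad3 peak after TGFβ-1. Of the LAP-Smad3 members of family A, 82.8% overlapped that untreated list and 76.3% a LAP-Smad2 peak after TGFβ-1.

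Family B, drawn from LAP-Smad3 members, had the higher share in that list. It held 471 LAP-Smad3 members (4.73%, 4.33 to 5.17%) in 386 genes and 45 LAP-Smad2 members (1.52%, 1.13 to 2.02%) in 45 genes, against 0.0532% of tiles. A CAGAC match was present in 97.9% of the LAP-Smad3 and 100% of the LAP-Smad2 members of the family. In family A the shares were 86.4% and 69.7%. The share in tiles of either family was not measured. Of the 45 LAP-Smad2 members, 88.9% overlapped a LAP-Smad3 peak. In contrast to family A, 0% of the members of family B in either list overlapped a peak of either untreated list. Without both families, which were chosen from these same lists, the GC difference was 3.94 percentage points (95% interval 3.63 to 4.24).

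**Figure D2:**
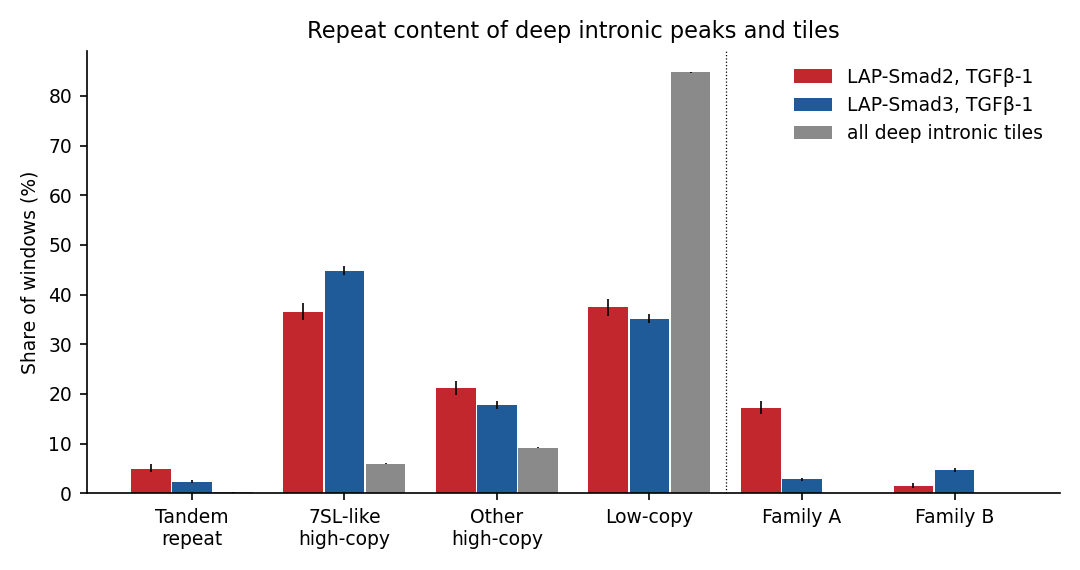
Share of windows in % in each repeat class (left of the dotted line) and in families A and B, which cross the classes (right), for LAP-Smad2 members (red), LAP-Smad3 members (blue) and measured deep intronic tiles (grey). Error bars are Wilson 95% intervals for counting error. The 7SL-like class holds 36.5% and 44.8% of members against 5.96% of tiles. Family A, defined from LAP-Smad2 members, holds 17.2% of LAP-Smad2 against 2.80% of LAP-Smad3 members.

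GC content peaked at the summits in low-copy and in 7SL-like members, the classes that were profiled. In low-copy LAP-Smad2 members it was 65.4% within 50 bp of the summit and 48.8% at 500 to 1000 bp. In low-copy LAP-Smad3 members the values were 60.2% and 50.4%. In 7SL-like members they were 59.4% and 41.2% for LAP-Smad2, and 56.8% and 40.2% for LAP-Smad3. The low-copy sequence around LAP-Smad2 summits was thus richer at the summit, and poorer at a distance, than that around LAP-Smad3 summits.

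**Figure D3:**
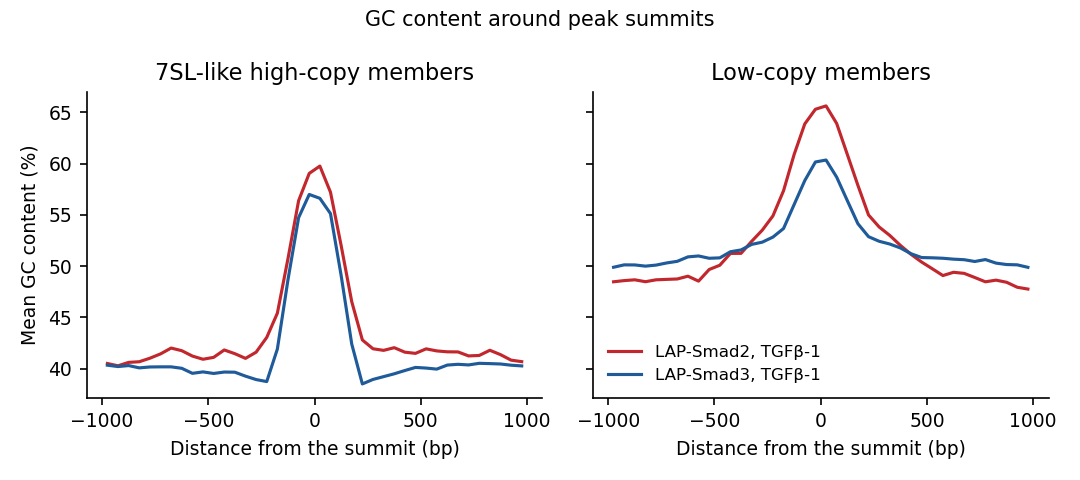
Mean GC content in % against the distance from the peak summit in bp, for 7SL-like (left) and low-copy (right) members of LAP-Smad2 (red) and LAP-Smad3 (blue). Low-copy members reach 65.4% in LAP-Smad2 and 60.2% in LAP-Smad3 within 50 bp of the summit, and the order of the lists is the opposite at 500 to 1000 bp, with 48.8% and 50.4%.

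Tandem repeats made up 147 LAP-Smad2 members (4.95%, 4.23 to 5.79%) in 106 genes and 228 LAP-Smad3 members (2.29%, 2.01 to 2.60%) in 130 genes, against 0.139% of tiles. The difference between the lists was 2.66 percentage points (1.87 to 3.54). Most had a period of 30 to 60 bases, 130 of 147 in LAP-Smad2 and 212 of 228 in LAP-Smad3, as in the PTPRN2 and TTC34 sequences above. Within 5 Mb of a chromosome end lay 55.8% of the LAP-Smad2 and 69.7% of the LAP-Smad3 tandem repeats, and 51.8% of all tandem tiles. Of all members, 14.6% and 14.9% lay there, against 5.90% of tiles. At 60 to 70% GC, however, members were less often near an end than tiles of the same GC content, with 21.4% and 26.5% against 37.0%. Among the 100 LAP-Smad2 members with the highest −log10 q, 20 were tandem repeats, and among the 100 LAP-Smad3 members 11.

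Members overlapped the other list unequally. Over the whole lists, 24.5% of LAP-Smad2 peaks and 10.6% of LAP-Smad3 peaks overlapped the other TGFβ-1 list by at least 1 bp. Of the LAP-Smad2 members, 1086 did so (36.6%, 34.9 to 38.3%), 13.5 percentage points more than the other LAP-Smad2 peaks (11.7 to 15.4). Of the LAP-Smad3 members, 1074 did so (10.8%, 10.2 to 11.4%), near the share of all LAP-Smad3 peaks, and 0.246 points from the other LAP-Smad3 peaks (−0.405 to 0.923). The overlap of LAP-Smad2 members was 46.3% in 7SL-like windows, 51.4% in other high-copy windows and 17.8% in low-copy windows. For LAP-Smad3 members it was 10.8%, 19.6% and 5.43%. The library labelled LAP-Smad2 untreated held a peak at 20.2% of LAP-Smad2 members, against 13.3% of the other LAP-Smad2 peaks, and at 7.96% of LAP-Smad3 members, against 7.14%. The one labelled LAP-Smad3 untreated held a peak at 4.38% of LAP-Smad2 members, against 9.86% of the other peaks, and at 0.623% of LAP-Smad3 members, against 1.19%.

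Of the 5 members that ranked highest by −log10 q, all 5 in LAP-Smad2 and 3 in LAP-Smad3 overlapped a peak of an untreated list. DCC, the netrin receptor, had a −log10 q of 98.8 and a fold enrichment of 21.2 in LAP-Smad2, no LAP-Smad3 peak after TGFβ-1, and a peak in both untreated lists. PARN, a poly(A)-specific ribonuclease, reached 63.0 in LAP-Smad2 and had a peak in all 4 lists. HFM1, a helicase of meiotic recombination, also had a peak in all 4 lists, with a −log10 q of 62.1 in LAP-Smad2 and 31.4 in LAP-Smad3. SH3RF3 reached 59.9, and TRIO, a guanine nucleotide exchange factor, 46.8, on a tandem repeat with a period of 51 bases. In LAP-Smad3, PTPRN2 reached 48.3 over 2330 bp, the centrosomal gene CEP72 26.8, TTC34 25.1 and ARHGAP39 24.7. The TTC34 and ARHGAP39 peaks overlapped no peak of any other list.

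Some of the strongest members shared sequence with ribosomal RNA genes or mitochondrial DNA. The HFM1 peak shared at least 20 16-mers with RNA45SN1, the gene of the 45S ribosomal RNA precursor, as did 5 LAP-Smad2 members in all (HFM1, SLCO5A1, GCNT1, DLG2 and PID1) and 4 LAP-Smad3 members (HFM1, SLCO5A1, DLG2 and PID1). Of the 5, 4 overlapped a LAP-Smad3 peak. Among tiles, 27 of 300959 shared as many. A further 3 LAP-Smad2 members shared at least 20 16-mers with the mitochondrial genome (PDZRN4, VPS13B and CORIN), with a −log10 q of 8.90 to 32.0, and 0 of the 9952 LAP-Smad3 members did, which allows a share of up to 0.0386% (upper Wilson limit). Among tiles, 2 did. These genes were named after their values were seen.

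Members were spread over many genes. Of the 8585 protein-coding genes that hold deep intronic sequence, 1705 had a LAP-Smad2 member (19.9%) and 3617 a LAP-Smad3 member (42.1%), and 1403 had both, which is 82.3% of the LAP-Smad2 genes and 38.8% of the LAP-Smad3 genes. A gene hit had 1.74 LAP-Smad2 members on average and 2.75 LAP-Smad3 members. With as many LAP-Smad3 members as LAP-Smad2 members, those with the highest −log10 q, the second mean was 1.65. A single member was found in 1034 LAP-Smad2 genes and 1689 LAP-Smad3 genes, and at least 10 members in 6 and 132 genes. Another member of the same gene lay within 5 kb of 20.03% of LAP-Smad2 and 27.3% of LAP-Smad3 members.

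The genes that held members were long, as the rule requires. Over members, the median gene length was below that over tiles. With each gene counted once, it was above that of all genes with deep intronic sequence. The median gene length was 226 kb for LAP-Smad2 members (order-statistic 95% interval 215 to 234 kb) and 240 kb for LAP-Smad3 members (233 to 245 kb). The intervals overlap only from 232.9 to 233.9 kb. With as many LAP-Smad3 as LAP-Smad2 members they did not overlap, the LAP-Smad3 interval being 235 to 258 kb. Nor did they beyond 20 kb from a start site (294 to 328 and 333 to 362 kb). In low-copy members alone the medians were 211 and 203 kb, with overlapping intervals (201 to 231 and 194 to 207 kb). Over all tiles the median was 335 kb. With each gene counted once, the order was opposite to that over all members. The median was 174 kb for genes hit in LAP-Smad2 and 143 kb for those hit in LAP-Smad3. Over all genes with deep intronic sequence it was 80.3 kb. Genes of 50 to 100 kb held 7.47 LAP-Smad2 and 23.1 LAP-Smad3 members per Mb of deep intronic sequence, and genes of 1000 kb or more 2.81 and 10.6. The GC content of the deep intronic sequence differed along with length, at 41.9% and 37.6%. When genes were split by that GC content into 5 groups of equal deep intronic length, the poorest group held 2.44 LAP-Smad2 and 10.0 LAP-Smad3 members per Mb and the richest 9.61 and 34.6.

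**Figure D4:**
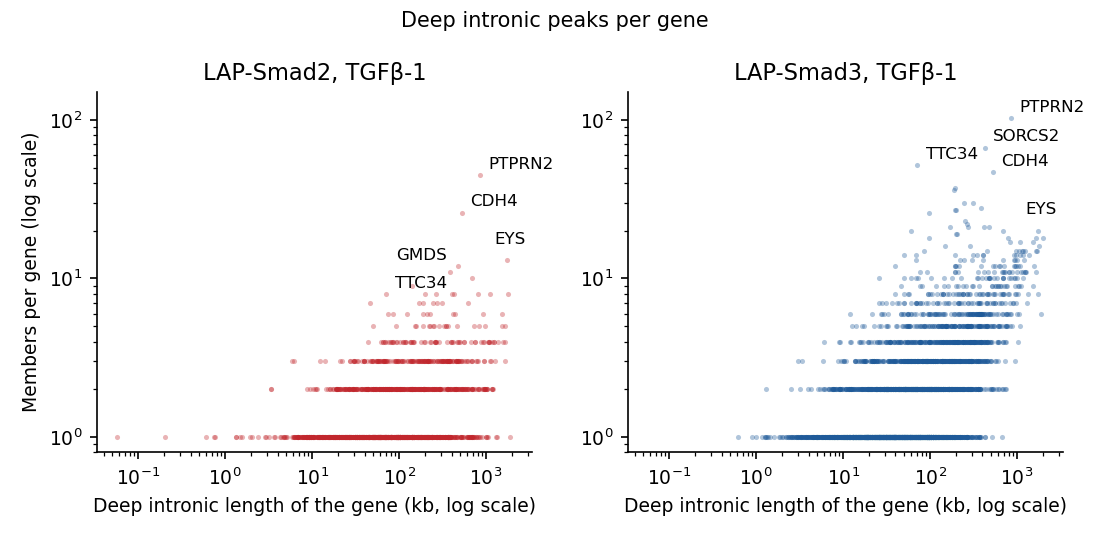
Members per gene (log scale) against the deep intronic length of the gene in kb (log scale), each point being 1 gene with at least 1 member, for LAP-Smad2 (left) and LAP-Smad3 (right). PTPRN2 stands highest in both, with 45 and 103 members, and TTC34 reaches 52 LAP-Smad3 members on 71.1 kb.

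PTPRN2 held the most members in both lists, 45 of LAP-Smad2 and 103 of LAP-Smad3. PTPRN2 (chr7:157539056-158587823, minus strand) encodes a receptor-type tyrosine phosphatase of secretory granules that lacks usual phosphatase activity. Its deep introns measure 848 kb and have a GC content of 51.1%, so that the densities were 53.0 and 121 members per Mb, against 4.93 and 16.5 over all genes. Tandem repeats numbered 16 of the 45 and 26 of the 103, and 7SL-like windows 1 in each list. Of its LAP-Smad2 members, 19 overlapped a LAP-Smad3 peak. CDH4 (chr20:61252261-61940617, plus strand), the gene of R-cadherin, came next in LAP-Smad2 with 26 members and had 47 in LAP-Smad3, of which 22 and 39 were low-copy.

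TTC34 and SORCS2 had more LAP-Smad3 members per LAP-Smad2 member than all genes together, where LAP-Smad3 members were 3.35 times as many. TTC34 (chr1:2636986-2801693, minus strand), which encodes a tetratricopeptide repeat protein, had 52 LAP-Smad3 members on 71.1 kb of deep intron, or 732 per Mb, and 8 LAP-Smad2 members. All 8 overlapped a LAP-Smad3 peak. In each of the 52, at least 50% of bases repeated with a period of 39 to 41 bases, and the same was true of the 8. By the 80% rule only 14 and 1 of them count as tandem repeats, and the others repeat less exactly and are low-copy by their counts in the genome. The median fold enrichment of the 52 was 7.005, against 4.90 over all LAP-Smad3 members, and that of the 8 was 2.85, against 4.11 over all LAP-Smad2 members. SORCS2 (chr4:7192538-7742836, plus strand), a sorting receptor of neurons, had 67 LAP-Smad3 and 8 LAP-Smad2 members, and 62 of the 67 were low-copy with 0 tandem repeats. Of its 8 LAP-Smad2 members, 2 overlapped a LAP-Smad3 peak.

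**Figure D5:**
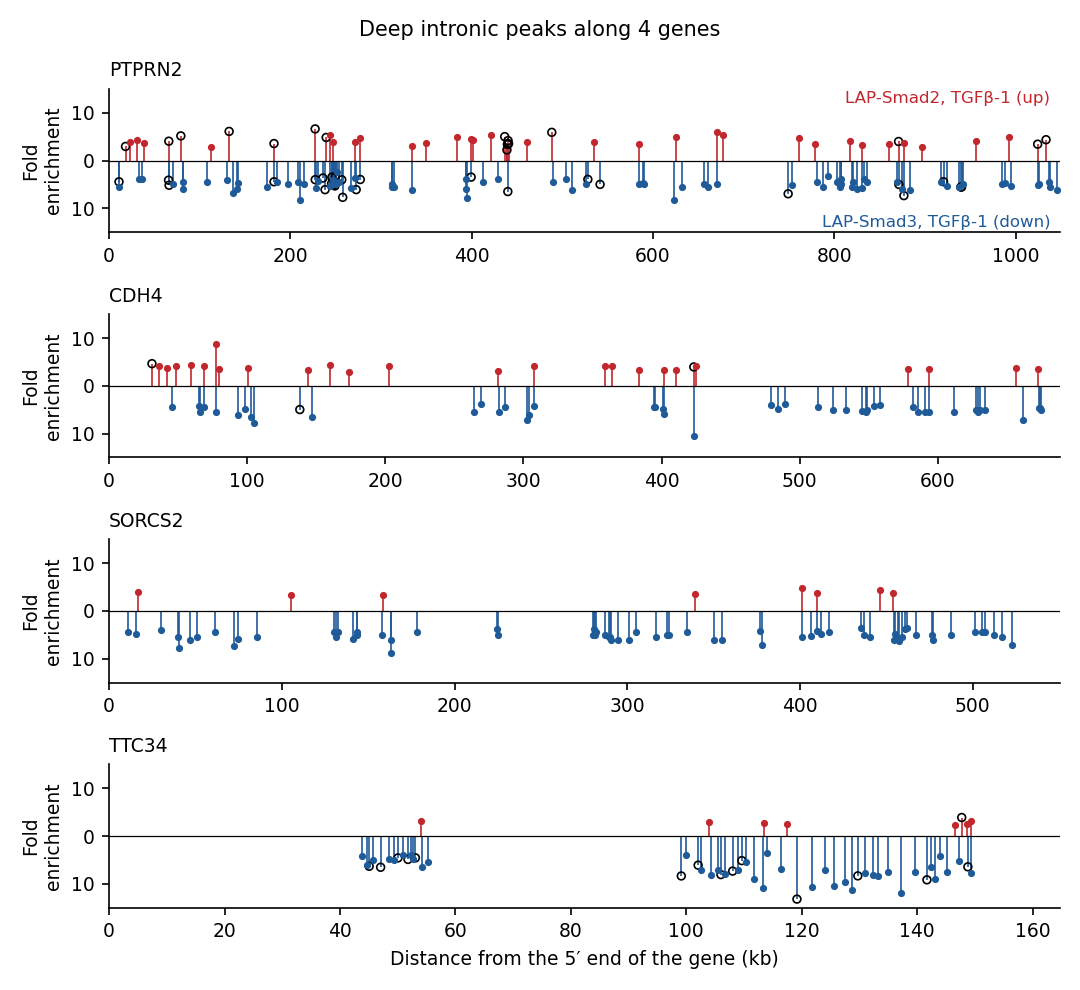
Members along PTPRN2, CDH4, SORCS2 and TTC34, by distance from the 5′ end of the gene in kb, with the fold enrichment of each peak pointing up for LAP-Smad2 (red) and down for LAP-Smad3 (blue), and open black circles for tandem repeats. TTC34 has 52 blue and 8 red members, and its stretch from 55.2 to 99.1 kb holds 1 of the gene's 353 deep intronic tiles and no members. SORCS2 has 67 blue and 8 red members over the whole gene.

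Most of the other genes with many members had GC-rich deep introns. After PTPRN2 and CDH4, LAP-Smad2 had most members in EYS (13), a gene of photoreceptors, GMDS (12), an enzyme of GDP-fucose synthesis, the postsynaptic scaffold genes SHANK2 (11) and DLGAP2 (10), and EXOC2 (9), a subunit of the exocyst. SMOC2, DIP2C and TTC34 had 8 each. EYS has 1748 kb of deep introns of 34.9% GC and had 7.44 members per Mb. Over all genes the density was 4.93, and in the GC-poorest of 5 groups of genes 2.44. The deep introns of GMDS and EXOC2 were near the average GC content, at 40.6% and 39.9%. LAP-Smad3 had most in PTPRN2, SORCS2, TTC34 and CDH4, followed by VAV2 (37), also a guanine nucleotide exchange factor, the transcriptional coregulator gene ZMIZ1 (36), the potassium channel gene KCNQ1 (30), SH3RF3 (30), SHANK2 (28) and GLI2 (27), a transcription factor of Hedgehog signalling. The deep introns of these 10 had a GC content between 48.8% (SH3RF3) and 61.3% (TTC34), against 39.9% over all. VAV2 and GLI2 had 2 LAP-Smad2 members each. Of the 10 genes with the most members, 4 were common to both lists (PTPRN2, CDH4, SHANK2 and TTC34).

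By density, smaller genes led. Among genes with at least 5 members, LAP-Smad2 was densest in EXD3 (7 members, 150 per Mb), TTC34 (113), ITPR3 (5 members, 98.9 per Mb), an inositol trisphosphate receptor, ADAMTS14 (6, 80.1) and CRTAC1 (6, 69.99). LAP-Smad3 was densest in TTC34 (732), CEP72 (6 members, 505 per Mb), IP6K3 (5, 393), SARDH (10, 385) and MRPL23 (5, 353). IP6K3, SARDH and MRPL23 had 0 LAP-Smad2 members. Of all genes with a LAP-Smad3 member, 38.8% also had a LAP-Smad2 member. Of the 6 CEP72 members, 5 were tandem repeats.

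The genes on the BACs have little deep intron. SMAD2 has 1.51 kb and SMAD3 7.63 kb of deep intron. SMAD2 held 0 members, although 17 LAP-Smad2 peaks lay in the gene. SMAD3 held 2 LAP-Smad3 members of the 52 LAP-Smad3 peaks in the gene, which on so short an intron is 262 per Mb, against 16.5 over all genes. Extra copies of both genes on the BACs are present in the respective lines.

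Genes of the TGFβ pathway held LAP-Smad3 members at a density above that of all genes, and too few LAP-Smad2 members to set apart from it. Of 29 pathway genes with deep introns, 18 held 53 LAP-Smad3 members (30.5 per Mb, against 16.5 over all genes) and 4 held 7 LAP-Smad2 members (4.03 per Mb, against 4.93). The 53 include the 2 of SMAD3, a gene on a BAC. PMEPA1, a TGFβ-induced inhibitor of Smad activation, had 7 LAP-Smad3 and 2 LAP-Smad2 members, all of them low-copy, in a deep intron of 55.6% GC. LTBP2, of the latent TGFβ-binding proteins, had 6 LAP-Smad3 members, all low-copy, and 0 LAP-Smad2 members. In the genes that followed, most were not low-copy. NEDD4L had 5 LAP-Smad3 members, of which 1 was low-copy, and LTBP1 and ZFYVE9 had 4 each, of which 0 were. Among genes of the type I and type II receptors, ACVR1C, BMPR2 and BMPR1B had 3 LAP-Smad3 members each, of which 0 were low-copy.

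Collagen genes, which encode extracellular matrix that TGFβ is known to induce, held 102 LAP-Smad3 members in 23 of 30 genes (27.1 per Mb) and 25 LAP-Smad2 members in 14 genes (6.65 per Mb). COL5A1 alone had 26 LAP-Smad3 members, 24 of them low-copy. The 15 ADAMTS proteases had 53 and 13 members (25.7 and 6.30 per Mb), and the 10 laminins 21 and 3 (25.97 and 3.71). Class IIa histone deacetylases and corepressors had 33 and 7 members in 7 genes (29.3 and 6.21 per Mb), of which HDAC9 held 11 and 4. The 15 integrins had 8 and 1 members (10.3 and 1.28 per Mb). The 20 long genes of common fragile sites had 229 and 51 members (8.59 and 1.91 per Mb), in deep introns of 37.6% GC. The 19 receptor tyrosine phosphatases had 165 and 56 members (25.8 and 8.74 per Mb), and without PTPRN2 11.2 and 1.98 per Mb. No list was tested, and the lists rest on few genes with uneven counts, as COL5A1 and PTPRN2 show.

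The short sequence of the Smad binding element was not more frequent in members than in tiles of the same GC content. CAGAC, on either strand, was present in 36.2% of LAP-Smad2 windows (34.5 to 37.9%) and 33.1% of LAP-Smad3 windows (32.2 to 34.1%), against 27.6% of all tiles. Weighted to the GC content of the members, tiles had a share of 42.7% for LAP-Smad2 and 40.5% for LAP-Smad3, so that members had 0.849 and 0.818 times that share. The ratio of LAP-Smad2 to LAP-Smad3 was 1.09 (1.03 to 1.15). The order was the opposite in low-copy members, with 38.4% and 47.6% and a ratio of 0.807 (0.744 to 0.876). It was also below 1 with as many LAP-Smad3 as LAP-Smad2 members (0.956, 0.895 to 1.02), with LAP-Smad3 weighted to the GC content of LAP-Smad2 (0.854) and without families A and B (0.989, 0.920 to 1.06), where the first and the last interval include 1. In low-copy members the shares were 0.946 and 1.03 times that of low-copy tiles of the same GC content. The repeat classes differed, with a match in 19.0% and 8.70% of 7SL-like windows and in 66.9% and 68.1% of other high-copy windows. Around low-copy summits, CAGAC matches were 1.07 times as dense within 50 bp as at 500 to 1000 bp in LAP-Smad2 and 1.35 times in LAP-Smad3. These densities were not weighted by GC content, which was higher at the summits. The same ratios for the general E-box CANNTG were 1.25 and 1.16. Around 7SL-like summits, those for CAGAC were 0.631 and 0.256.

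The palindromic Smad site GTCTAGAC was present in 0 of 2970 LAP-Smad2 members (upper limit 0.129%) and 4 of 9952 LAP-Smad3 members (0.0402%, 0.0156 to 0.103%), and in 0.106% of tiles. The GC-rich Smad element GGCGC was present in 57.9% and 47.9% of members, 1.91 and 2.30 times the GC-weighted tile share, but in low-copy members 1.14 (1.04 to 1.25) and 1.07 (0.989 to 1.15) times. In LAP-Smad2, 49.1% of the windows with GGCGC were 7SL-like, and in LAP-Smad3 69.0%.

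Motifs of other factors were also weighed against tiles of the same GC content. AGGTCA, the core element of many nuclear receptors, was present in 19.3% of LAP-Smad2 and 31.3% of LAP-Smad3 members, 1.42 and 1.56 times the GC-weighted tile share. Of the LAP-Smad3 windows with AGGTCA, 72.5% were 7SL-like, and in low-copy members the share was 0.974 (0.814 to 1.16) and 0.930 (0.850 to 1.02) times that of tiles. AGAACA, another nuclear receptor element, stood lower, at 0.356 and 0.532 times the GC-weighted tile share over all members. In low-copy members AGAACA stood at 0.838 (0.661 to 1.06) and 0.917 (0.829 to 1.01) times. TGANTCA, the site of AP-1, was present in 0.909% of LAP-Smad2 members (0.626 to 1.32%) and 2.30% of LAP-Smad3 members (2.02 to 2.61%), a ratio of 0.395 (0.266 to 0.587). These shares were 0.316 and 0.586 times those of GC-weighted tiles. In low-copy members it was 0.545 (0.350 to 0.845) times the GC-weighted tile share in LAP-Smad2 and 0.994 (0.851 to 1.16) times in LAP-Smad3. The E-box CAGCTG, bound by basic helix-loop-helix factors, stood at 0.833 (0.766 to 0.905) and 0.755 (0.717 to 0.795) times the GC-weighted tile share over all members, and the general E-box CANNTG at 0.706 and 0.742 times. The ratio of LAP-Smad2 to LAP-Smad3 was 1.24 (1.13 to 1.37) for CAGCTG and 0.866 (0.828 to 0.904) for CANNTG. The former was present in 31.4% of low-copy LAP-Smad2 members (28.8 to 34.2%), 1.28 (1.16 to 1.41) times the tile share, and in 21.7% of low-copy LAP-Smad3 members, 1.02 (0.957 to 1.09) times. TGTTTAC, a forkhead site, stood at 1.65 and 2.49 times over all members, and at 2.06 (1.25 to 3.37) and 1.44 (1.14 to 1.83) in low-copy members, on 15 and 66 windows.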

How the data were processed

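Anti-GFP ChIP-seq of 4 conditions with 1 library each was used. The authors used Bowtie2 for alignment of the single-end reads (hg38), and MACS2, with each read lengthened to 200 bp, for peaks of each library (q-value below 0.05). Tool versions, the control library and the handling of reads with several positions are not given in the sources used here. The deposited lists hold the fold enrichment as a ratio, the p-value and q-value as −log10, and the summit offset. No depth can be derived from them.

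Members and gene lists were chosen with earlier results of these data known. Where several genes hold a peak, the longest was used. Genes named were the 10 with most members per list (ties by density), the 5 densest with at least 5 members, the 5 members per list with the highest −log10 q, the 5 genes with most members in both lists, SMAD2 and SMAD3, and members of gene lists. Windows of 200 bp and all 3009480 deep intronic tiles were read from hg38, and every 10th tile was measured for repeats. GC weighting used bins of 2%. Intervals are Wilson, Newcombe, log-ratio or order-statistic intervals at the 95% level. Those of differences in GC content are normal intervals from the SD between peaks, which treat the peaks of a library as independent. Python 3.11.15, numpy 2.4.6, pandas 2.3.3 and numba 0.67.0 were used, and 10 of 10 checks on simulated data passed. Some sequences and 1 gene list are not reported here.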

Additional observations from a re-analysis of the deposited data

How the results depend on the processing

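Of 82 values under alternatives set with the design, 61 stayed within the interval of the reported value (for counts of members, within 1.5 times), and 2, both of the CAGAC ratio, fell on the other side of 1. Beyond 20 kb from a start site, members numbered 1623 (LAP-Smad2) and 5603 (LAP-Smad3), the difference in deep intronic share was 2.91 points, median gene lengths were 309 and 346 kb, and 39.1% of LAP-Smad2 members overlapped a LAP-Smad3 peak. With as many LAP-Smad3 members as LAP-Smad2 members, the GC difference was 5.20 points, the LAP-Smad3 median gene length 246 kb, its mean per gene 1.65, the tandem repeat difference 1.72 points, and the CAGAC ratio was 0.956 (0.895 to 1.02). Weighted to the GC content of LAP-Smad2, the CAGAC ratio was 0.854. Among members without a peak of the other list, the GC difference was 6.41 points, the LAP-Smad2 median gene length 215 kb, the means per gene 1.49 and 2.62, and the CAGAC ratio 1.002. With windows of 100 bp, the GC difference was 6.01 and the tandem repeat difference 4.59 points. At a mutual overlap of 50%, overlaps were 24.1% and 7.14%. Added after seeing the data, low-copy members alone had median gene lengths of 211 and 203 kb, overlaps of 17.8% and 5.43% and a CAGAC ratio of 0.807. Without families A and B, the GC difference was 3.94 points, overlaps were 33.6% and 8.54%, and the CAGAC ratio was 0.989 (0.920 to 1.06). The cause of these shifts was not tested. A −log10 q of at least 2, summit positions and removal of the SMAD2 and SMAD3 loci moved none of the values beyond these bounds. No paired analysis was possible because each condition has 1 library and no result comes from a test. Unknown depth limits every comparison of list lengths.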
